A study of Mus musculus with 20 samples.

Results

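The TGF-beta pathway of microglia was followed through 10 genes that cover its steps from ligand to nuclear inhibitor, namely Tgfb1, Nrros, Tgfbr1, Tgfbr2, Smad2, Smad3, Smad4, Smad7, Ski and Skil. A gene was taken where a probe set of the array was annotated to that symbol alone. Each of the 10 had 1 such probe set, among 19751 genes with one on the array. Microglia had been sorted by flow cytometry from perfused brains of 8.5 month old littermates, and RNA of each sample was hybridised to 1 array. The groups were wild type (WT, 4 arrays), Trem2-/- (4 arrays, lacking the lipid-sensing microglial receptor TREM2), 5XFAD (5 arrays, carrying mutant human amyloid precursor protein and presenilin transgenes that are expressed in neurons and give amyloid plaques) and Trem2-/-5XFAD (6 arrays, both). No treatment was given to any group. One further array carries a WT title and a Trem2-/- genotype label, and it entered no comparison. Nothing in the labels says whether each array is 1 mouse or a pool, so p-values measure the spread between these samples.

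TGF-beta is made as a latent complex that cells must activate. Microglia hold it on their surface through the protein encoded by Nrros, and in the mouse both the ligand and this tether are needed for microglia to acquire and keep their characteristic gene programme. Active ligand binds the type II receptor (Tgfbr2), which recruits and phosphorylates the type I receptor (Tgfbr1). The type I receptor phosphorylates SMAD2 and SMAD3, which enter the nucleus with SMAD4. Smad7 encodes an inhibitor that is itself a target of the pathway and acts on the type I receptor, and Ski and Skil encode corepressors of the SMAD complex.

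The pathway genes were not all called, and differences between members were not tested. In 5XFAD against WT 7 of the 10 differences were below 0. In 5XFAD microglia the type I receptor Tgfbr1, the signal transducer Smad3 and the inhibitor Smad7 were lower than in WT, by 0.45 to 0.68 on the log2 scale. The type II receptor, the ligand, its tether, Smad2, Smad4 and both corepressors did not pass the test. Smad3 and Smad7 were also called lower in Trem2-/-5XFAD than in WT, the Smad7 call being lost in 7 of 19 fits that left out 1 array. Against their own Trem2-/- control no member of Trem2-/-5XFAD passed, and the Smad3 difference there was -0.05. No member passed the test between Trem2-/-5XFAD and 5XFAD either. All levels below are log2(intensity + 1) of the deposited values, so a difference of 1 is a doubling. A gene passed the test, or was called, where the adjusted p of limma, over all 12728 genes tested, was under 0.05.

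The start regions of Tgfbr1, Tgfbr2 and Smad3 are shown because the results turn on the receptor pair and on this SMAD. The sequences are the 250 bases before an annotated start in RefSeq (mouse build GRCm38.p6), read 5′ to 3′ on the gene's strand. Capitals mark each CAGAC, a letter run of SMAD binding elements, and each GGCGC, a GC-rich run known to bind SMAD proteins, searched on both strands (reverse GTCTG and GCGCC). Tgfbr1 lies at chr4:47352972-47353221 on the plus strand, Tgfbr2 at chr9:116175364-116175613 on the minus strand and Smad3 at chr9:63757995-63758244 on the minus strand.
Tgfbr1: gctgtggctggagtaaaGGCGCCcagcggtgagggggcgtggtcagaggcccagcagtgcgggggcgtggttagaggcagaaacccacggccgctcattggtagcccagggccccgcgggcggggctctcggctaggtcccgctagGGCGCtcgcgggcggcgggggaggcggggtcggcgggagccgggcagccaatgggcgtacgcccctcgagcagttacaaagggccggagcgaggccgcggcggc
Tgfbr2: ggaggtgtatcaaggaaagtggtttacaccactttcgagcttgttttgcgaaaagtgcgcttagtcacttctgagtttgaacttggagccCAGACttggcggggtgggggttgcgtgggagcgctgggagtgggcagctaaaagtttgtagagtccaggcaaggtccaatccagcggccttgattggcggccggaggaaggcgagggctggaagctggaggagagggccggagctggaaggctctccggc
Smad3: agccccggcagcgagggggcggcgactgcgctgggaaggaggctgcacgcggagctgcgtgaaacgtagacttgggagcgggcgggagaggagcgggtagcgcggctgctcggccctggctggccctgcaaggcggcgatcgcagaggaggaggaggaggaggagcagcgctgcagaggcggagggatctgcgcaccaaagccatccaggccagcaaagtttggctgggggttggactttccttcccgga
RefSeq gives 2 starts for Tgfbr1, of which the upstream one is printed. Its window holds 3 matches to GGCGC, of which a pair overlaps as the palindrome GGCGCC, and no CAGAC, while the window of the other start (chr4:47385966-47386215, plus strand) holds 1 CAGAC and no GGCGC. The Tgfbr2 window holds 1 CAGAC and no GGCGC, and the Smad3 window holds neither. Of 32851 mouse start windows of this length, 42.2% hold CAGAC and 32% hold GGCGC, so these letters are common, and their presence or absence here is a description only. Start windows were taken for 6 of the 10 members, and windows on 1 chromosome were left out of the search. Smad2, Smad4, Smad7 and Skil have no window here.

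The labels were checked first on Trem2 itself, which lay between 11.14 and 11.39 in WT and between 11.45 and 11.80 in 5XFAD. It lay between 6.84 and 7.02 in Trem2-/- and between 6.75 and 7.60 in Trem2-/-5XFAD, well apart from the Trem2-bearing groups. All 10 members stood above the array's 40th percentile, used as the limit for low signal, in all 19 assigned arrays. Microglial markers were high in every group, with a summed intensity over 9 genes of 27456 to 31887 in WT, 27470 to 29055 in Trem2-/-, 22783 to 23430 in 5XFAD and 26303 to 27985 in Trem2-/-5XFAD. Of these 9, 5 fell in 5XFAD against WT (6.77% of all genes called lower). In Trem2-/-5XFAD against 5XFAD 4 rose (7.68% of all genes called in either direction). Klk1b22, a kallikrein gene known from salivary gland, reached 9.25 and 9.51 in WT replicates 1 and 2 and 8.25 and 7.91 in 5XFAD replicates 1 and 2, and at most 3.80 in the other assigned arrays. The member and list results of 5XFAD against WT and of Trem2-/-5XFAD against 5XFAD were recomputed without these 4 arrays, and results described here that changed a call, or a called value or count that moved by over 1.5 times, are given.

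Tgfbr1, the type I receptor (probe set 10504817), stood at 11.12, 11.06, 11.20 and 11.35 in the 4 WT arrays and at 11.26, 11.25, 11.19 and 11.12 in the 4 Trem2-/- arrays. It stood at 10.61, 10.62, 10.40, 10.88 and 10.80 in the 5 5XFAD arrays, and its lowest, median and highest values in Trem2-/-5XFAD were 10.86, 10.95 and 11.03. Every 5XFAD array was below every WT array, and all Trem2-/-5XFAD arrays lay below WT and Trem2-/- and overlapped 5XFAD only at its top array. Tgfbr1 fell by 0.52 ± 0.10 (SE) in 5XFAD against WT (adjusted p = 0.000787), and its intensity fell by 30.4%. Without the 4 arrays with gland transcripts the difference was -0.58 (adjusted p = 0.0108). Against 5XFAD, the Trem2-/-5XFAD mean was 0.29 ± 0.09 higher, with a 95% interval of 0.10 to 0.48, and missed the threshold (adjusted p = 0.0528). It passed without 5XFAD replicate 4 (adjusted p = 0.0263), without 5XFAD replicate 5 (0.0439) or without WT replicate 4 (0.0468). Over all 19 fits that left out 1 array, its adjusted p ran from 0.0263 to 0.156. Without the 4 arrays with gland transcripts this difference from 5XFAD was 0.26 (adjusted p = 0.241). Trem2-/- was 0.02 ± 0.10 from WT (adjusted p = 0.959), and Trem2-/-5XFAD was -0.23 from WT (adjusted p = 0.172). In bulk RNA a change in every microglial cell and a change in the mix of sorted cells cannot be told apart.

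Tgfbr2, the type II receptor that pairs with it (probe set 10597518), had a different order of groups. Its levels were 9.39, 9.39, 9.32 and 9.62 in WT and 9.06, 9.13, 9.11 and 9.24 in Trem2-/-, so that every Trem2-/- array was below every WT array. The 5XFAD arrays were at 9.43, 9.70, 9.76, 9.68 and 9.59, overlapping WT at its top array, and Trem2-/-5XFAD ran from 8.84 through a median of 9.45 to 9.51. In 5XFAD the mean was 0.20 ± 0.12 above WT (adjusted p = 0.324, 95% interval -0.06 to 0.46), which does not reach down to the fall of Tgfbr1. Trem2-/-5XFAD was -0.27 ± 0.11 from 5XFAD (adjusted p = 0.163) and Trem2-/- was -0.30 ± 0.13 from WT (adjusted p = 0.35). Neither passed the test.

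Within each array, the level of Tgfbr1 minus that of Tgfbr2 sets the receptors side by side. This difference was looked at after the values were seen and carries no test, and since the probe sets differ, its changes between groups have a meaning but its size does not. It was 1.75 ± 0.09 (SD, 4 arrays) in WT, 2.07 ± 0.14 in Trem2-/-, 1.03 ± 0.25 in 5XFAD and 1.60 ± 0.28 in Trem2-/-5XFAD. The 5 5XFAD arrays ran from 0.64 to 1.21, below the WT range of 1.67 to 1.88 and below the Trem2-/-5XFAD range of 1.40 to 2.15. Without the 4 arrays with gland transcripts, the 5XFAD mean was -0.79 from WT, against -0.72 with them.

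**Figure D1:**
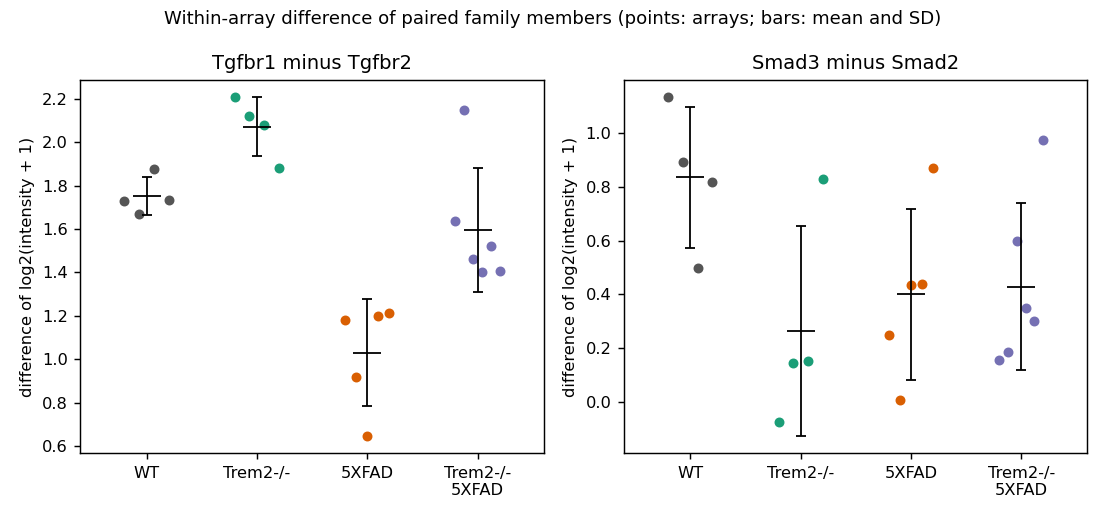
Difference of log2(intensity + 1) between family members within each array, with Tgfbr1 minus Tgfbr2 on the left and Smad3 minus Smad2 on the right; points are arrays, and bars give the group mean and SD. The 5 5XFAD arrays lie between 0.64 and 1.21 for the receptors, below all arrays of the other groups, while the Smad3 minus Smad2 ranges overlap between all groups.

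Among the SMAD transducers, Smad3 (probe set 10594404), which binds DNA directly and carries much of the transcriptional response, had the largest difference of the 10 members in 5XFAD against WT in this fit. Its levels were 8.67, 8.63, 8.50 and 8.57 in WT and 7.67, 7.69, 8.09, 7.995 and 8.13 in 5XFAD. They were 7.89, 8.10, 7.89 and 8.39 in Trem2-/-, and ran from 7.87 through 8.02 to 8.24 in Trem2-/-5XFAD. All arrays of the 3 other groups were below all 4 assigned WT arrays, while the unassigned array stood at 8.28. These 3 comparisons share the WT arrays, so they are not independent of each other. Smad3 fell by 0.68 ± 0.12 in 5XFAD against WT (adjusted p = 0.000577) and by 0.58 ± 0.12 in Trem2-/-5XFAD against WT (adjusted p = 0.00653). In 5XFAD its intensity fell by 37.5%. In Trem2-/- against WT the difference was -0.53 ± 0.13 (adjusted p = 0.082), which passed without Trem2-/- replicate 4 (0.0417). Its adjusted p reached 0.212 over the 19 fits that left out 1 array and 0.315 over the 12 other settings of the processing. Without the 4 arrays with gland transcripts, the 5XFAD difference was -0.46 and lost its call (adjusted p = 0.0698).

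The effect of the transgenes on Smad3 in Trem2-/- mice was 0.62 ± 0.17 above that in Trem2-bearing mice, by the interaction term, and did not pass (adjusted p = 0.0596). It passed without Trem2-/- replicate 4 (0.0199) and without 5XFAD replicate 5 (0.0461). Over all 19 fits that left out 1 array, its adjusted p ran from 0.0199 to 0.133. In the 11 other settings of the processing the interaction was 0.41 to 0.67, with adjusted p from 0.0385 to 0.344. Trem2-/-5XFAD was -0.05 ± 0.12 from Trem2-/- alone (95% interval -0.30 to 0.20).

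Smad2, the other receptor-activated SMAD of this branch, was at 7.54, 7.74, 7.997 and 7.75 in WT and at 7.42, 7.68, 7.66, 7.56 and 7.26 in 5XFAD. The Trem2-/- values were 7.96, 7.95, 7.73 and 7.56, and Trem2-/-5XFAD ran from 7.27 through 7.68 to 7.73. All groups overlapped. The 5XFAD mean was -0.24 ± 0.13 from WT (adjusted p = 0.236). Smad4, the common partner, lay at 7.74, 7.77, 6.93 and 7.64 in WT, at 7.90, 7.59, 7.81 and 7.58 in Trem2-/-, at 7.34, 7.52, 7.65, 7.81 and 7.70 in 5XFAD, and from 7.55 through 7.70 to 7.83 in Trem2-/-5XFAD. The low WT array was replicate 3, and no comparison of Smad4 passed. Within an array, Smad3 minus Smad2 was 0.84 ± 0.26 (SD) in WT and 0.40 ± 0.32 in 5XFAD, with overlapping ranges, and the difference of -0.44 became -0.08 without the 4 gland-transcript arrays.

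Smad7, the inhibitor induced by the pathway (probe set 10456745), was at 8.09, 8.54, 8.35 and 8.49 in WT and at 8.25, 8.24, 8.29 and 8.25 in Trem2-/-. The 5XFAD arrays were at 7.79, 8.01, 7.73, 8.02 and 8.05, all below WT, and Trem2-/-5XFAD ran from 7.74 through 7.94 to 8.17. The Trem2-/-5XFAD arrays lay below all Trem2-/- arrays and overlapped WT only at its lowest array. Smad7 fell by 0.45 ± 0.11 in 5XFAD against WT (adjusted p = 0.00942) and by 0.42 ± 0.11 in Trem2-/-5XFAD against WT (adjusted p = 0.0297). In 5XFAD its intensity fell by 26.7%, and without the 4 arrays with gland transcripts the difference from WT was -0.49 (adjusted p = 0.0426). The second call was lost in 7 of 19 fits that each left out 1 array, namely WT replicates 2, 3 and 4 and Trem2-/-5XFAD replicates 1, 2, 3 and 4, with adjusted p-values of 0.0509 to 0.0914. Against its own Trem2-/- control, Trem2-/-5XFAD was -0.31 (adjusted p = 0.176).

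Neither corepressor passed a test in this fit. Ski, a nuclear corepressor of SMAD target genes, lay at 8.95, 9.11, 8.95 and 9.24 in WT, at 8.99, 8.76, 8.94 and 9.07 in Trem2-/-, at 8.92, 8.98, 8.68, 8.90 and 8.77 in 5XFAD, and from 8.86 through 9.02 to 9.17 in Trem2-/-5XFAD. Its 5XFAD mean was -0.21 ± 0.10 from WT (adjusted p = 0.186), and the groups overlapped. Skil, which encodes SnoN, stood at 10.05, 10.11, 9.74 and 9.79 in WT and at 10.17, 10.19, 10.17 and 10.22 in Trem2-/-, all above WT. In 5XFAD it stood at 9.78, 9.88, 9.99, 10.04 and 9.97, within the WT range, and Trem2-/-5XFAD ran from 9.9985 through 10.22 to 10.39. Skil was 0.28 ± 0.09 higher in Trem2-/-5XFAD than in 5XFAD (adjusted p = 0.0622) and 0.27 ± 0.11 higher in Trem2-/- than in WT (adjusted p = 0.291). Neither passed, and the first passed without Trem2-/-5XFAD replicate 2 (0.0274). Against WT, Skil in Trem2-/-5XFAD was 0.30 ± 0.10 higher (adjusted p = 0.0809), which passed without WT replicate 2 (0.0481) or Trem2-/-5XFAD replicate 2 (0.0438).

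At the ligand end, Tgfb1 lay at 9.98, 10.01, 10.11 and 10.11 in WT, at 9.68, 9.93, 9.96 and 10.001 in Trem2-/- and at 9.95, 9.97, 9.44, 9.96 and 10.004 in 5XFAD. In Trem2-/-5XFAD it ran from 9.55 through 9.80 to 10.11. Its 5XFAD mean was -0.19 ± 0.12 from WT (adjusted p = 0.349), and -0.086 without 5XFAD replicate 3. Nrros, the tether of latent ligand, lay at 8.43, 8.47, 8.25 and 8.12 in WT, at 8.35, 8.65, 8.32 and 8.63 in Trem2-/-, at 8.25, 8.37, 8.28, 8.35 and 8.09 in 5XFAD, and from 7.78 through 8.35 to 8.51 in Trem2-/-5XFAD. Its 5XFAD mean was -0.05 ± 0.13 from WT (adjusted p = 0.856). Both genes overlapped between these groups.

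**Figure D2:**
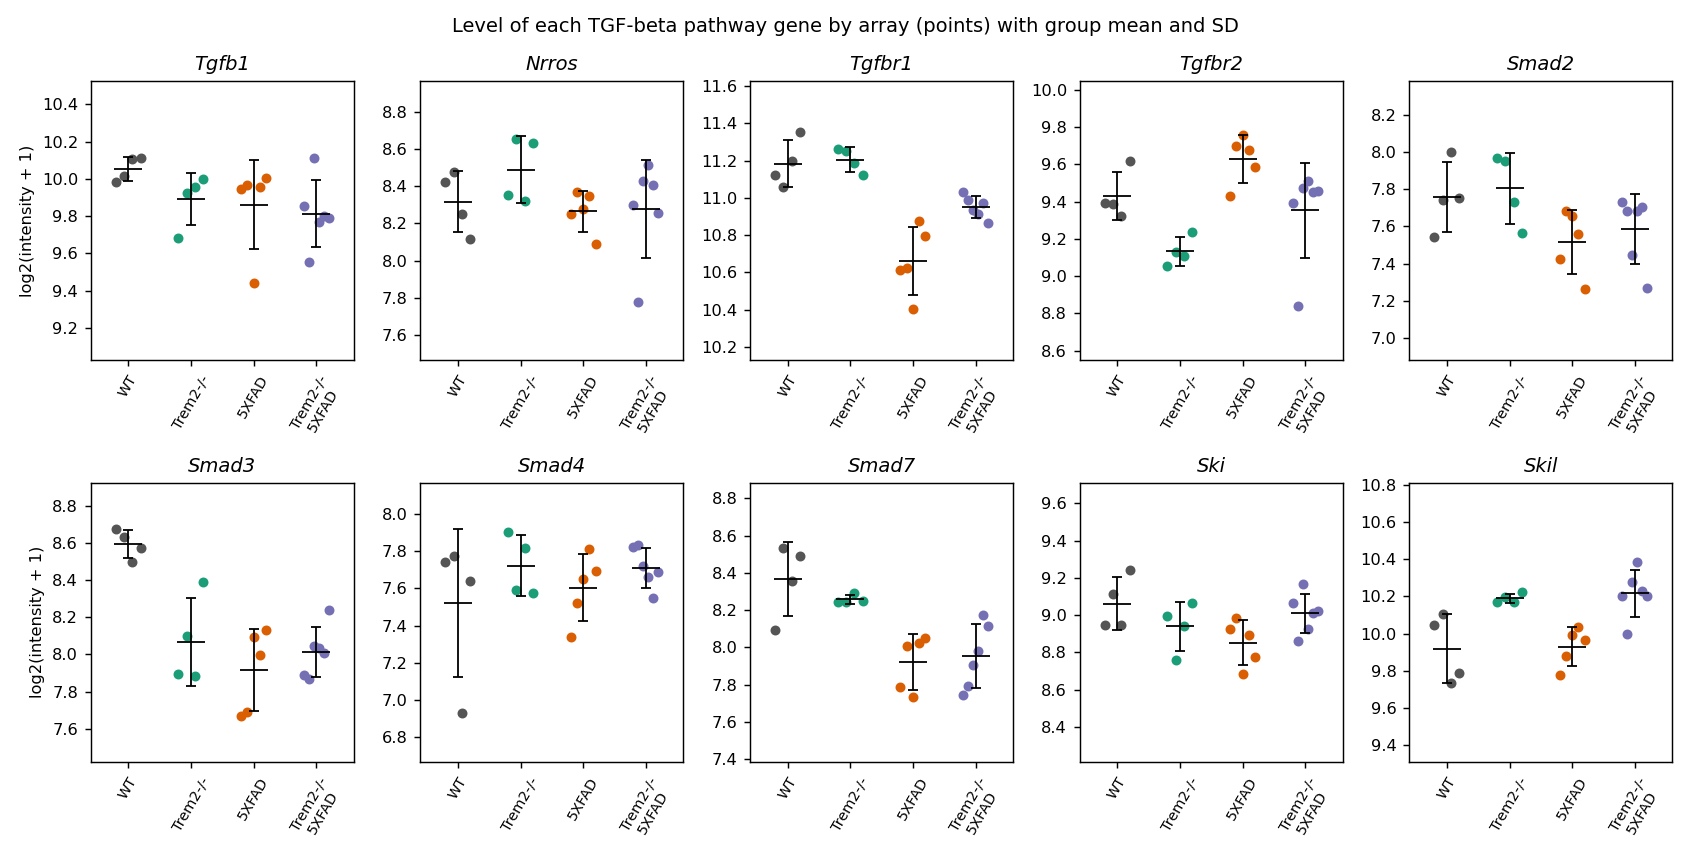
Level of each of the 10 members, as log2(intensity + 1), in each assigned array of the 4 groups; points are arrays, and bars give the group mean and SD. Tgfbr1 in 5XFAD and Trem2-/-5XFAD, Smad7 in 5XFAD, Tgfbr2 in Trem2-/-, and Smad3 in every group but WT, lie below all WT arrays.

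Counted over the members, 3 of 10 were called lower in 5XFAD against WT and none higher, where 6.77% of all tested genes were called lower and 15.0% in either direction. The same 3 did not overlap between the groups, against 6.27% of all genes that were lower without overlap. The median difference was -0.20 over the members and -0.02 over all genes tested. Between Trem2-/-5XFAD and 5XFAD limma called 0 of 10 (7.68% of all genes), and 3 had an unadjusted p under 0.05, namely Tgfbr1, Tgfbr2 and Skil. In Trem2-/- against WT it called 0 of 10 (0.613% of all genes), with 3 under an unadjusted 0.05, while Smad3 and Tgfbr2 were lower without overlap (2.69% of all genes) and Skil higher without overlap (3.10%).

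In Trem2-/-5XFAD against Trem2-/-, limma called 0 of 10 (2.18% of all genes) and 2 had an unadjusted p under 0.05. Tgfbr1 and Smad7 were lower there without overlap (2.06% of all genes), with a Tgfbr1 difference of -0.25 (adjusted p = 0.197). Against WT, 2 of 10 were called lower in Trem2-/-5XFAD, Smad3 and Smad7 (2.01% of all genes), and Smad3 and Tgfbr1 did not overlap (2.68%). The interaction called 0 of 10 (2.60% of all genes), and 1, Smad3, had an unadjusted p under 0.05.

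**Figure D3:**
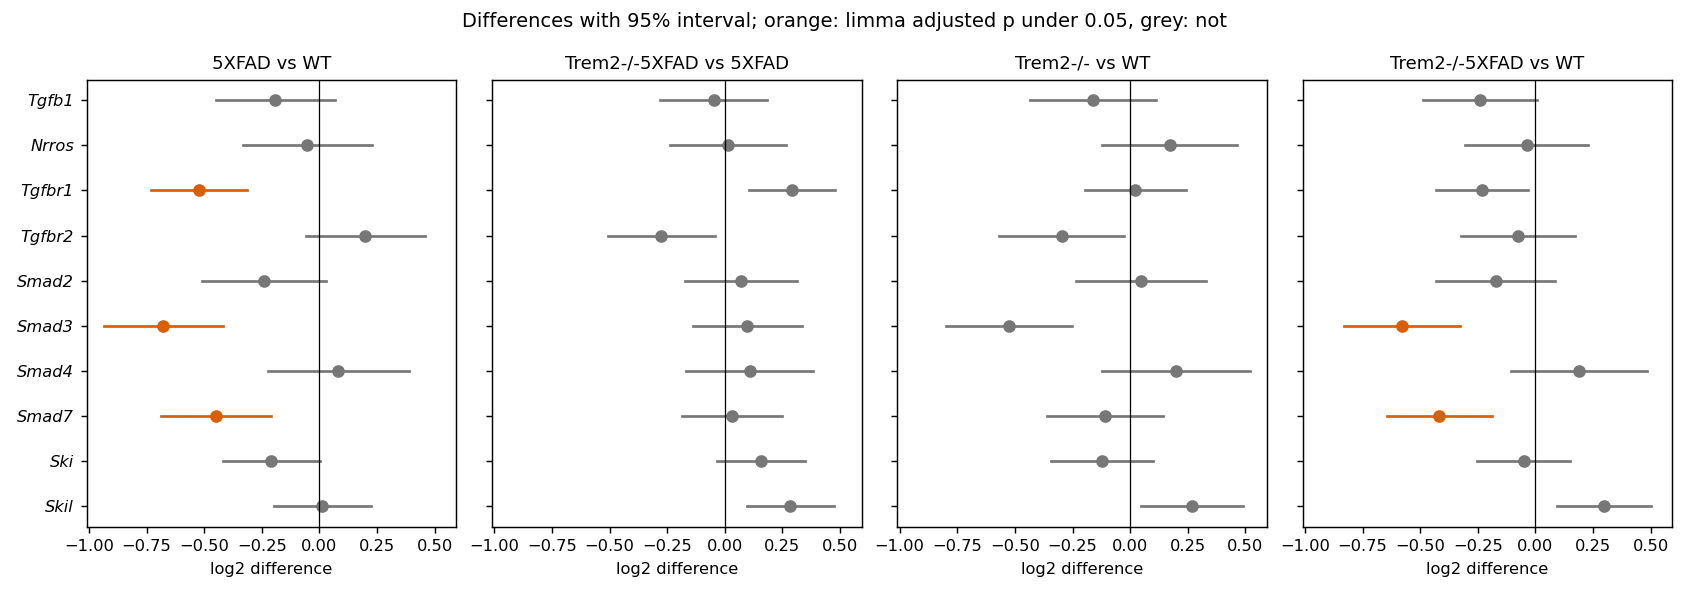
Difference in log2(intensity + 1) for the 10 members in each comparison, with lines for the 95% interval, in 4 of the comparisons; orange genes passed the test and grey genes did not. In 5XFAD against WT the orange genes are Tgfbr1, Smad3 and Smad7, all below 0, and in Trem2-/-5XFAD against 5XFAD there are none.

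The genes around the members were read from lists of ligands and latency proteins, receptor-level regulators, SMAD partners, immediate targets, the related BMP and activin branch, and microglial genes known to depend on TGF-beta. Their counts are read against the 15.0% of all tested genes called in 5XFAD against WT and the 7.68% called in Trem2-/-5XFAD against 5XFAD. Without the gland-transcript arrays these shares were 11.3% and 4.55%, and counts without those arrays are read against them. Of 7 tested ligand and latency genes, 1 rose in 5XFAD against WT and 1 fell in Trem2-/-5XFAD against 5XFAD, in both cases Thbs1, a secreted protein able to activate latent TGF-beta. Without the gland-transcript arrays 1 rose and 2 fell in the first comparison. It ranged from 5.30 to 6.03 in WT, from 6.30 to 7.23 in 5XFAD and from 5.94 to 6.35 in Trem2-/-5XFAD. Thbs1 rose by 1.11 ± 0.17 (adjusted p = 8.14e-05) and then fell by 0.74 ± 0.15 (adjusted p = 0.00351), and its interaction passed (-0.99, adjusted p = 0.0265).

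Of 20 receptor-level regulators, 1 rose and 2 fell in 5XFAD against WT, a share no larger than the 15.0% of all genes. Between Trem2-/-5XFAD and 5XFAD 3 rose and none fell (7.68% of all genes). Without the 4 arrays with gland transcripts 0 of 20 passed there (4.55% of all genes). Eng, Tgfbrap1 and Ppp1r15a then had differences of 0.40, 0.52 and 0.43 (adjusted p = 0.0931, 0.0642 and 0.0612). Without these arrays 3 rose and 2 fell in 5XFAD against WT. Eng, the co-receptor endoglin, ranged from 8.58 to 8.83 in WT, 8.12 to 8.55 in Trem2-/-, 7.38 to 7.86 in 5XFAD and 7.94 to 8.25 in Trem2-/-5XFAD. All WT arrays were above, and all 5XFAD arrays below, every array of the other groups, while Trem2-/- and Trem2-/-5XFAD overlapped. Eng fell by 1.002 ± 0.11 in 5XFAD (adjusted p = 1.98e-06) and was 0.37 ± 0.10 higher in Trem2-/-5XFAD (adjusted p = 0.0301), with an interaction of 0.70 (adjusted p = 0.0191). Tgfbrap1, a receptor-associated protein, fell by 0.58 and rose by 0.52 in the same comparisons. Dab2, an adaptor between receptors and SMADs, rose by 0.67 in 5XFAD (1.04 without the gland-transcript arrays), and Ppp1r15a, a phosphatase subunit that can act on the type I receptor, was 0.41 higher in Trem2-/-5XFAD than in 5XFAD.

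Of 22 SMAD partners and corepressors, 3 rose and 2 fell in 5XFAD (15.0% of all genes called), and 2 rose and none fell in Trem2-/-5XFAD against 5XFAD (7.68%), both counts being a few genes from the background. The largest fall named was that of Smad1, the SMAD of the BMP branch, by 0.84 ± 0.11 (adjusted p = 1.64e-05), with a rise of 0.39 ± 0.10 in Trem2-/-5XFAD against 5XFAD (adjusted p = 0.0194). The LIM-domain partner Ldb1 fell by 0.40, the corepressor Tgif1 rose by 0.56 and Ppm1a, a phosphatase for SMAD2 and SMAD3, rose by 0.44, all in 5XFAD against WT. Without the gland-transcript arrays Tgif1 was 0.88 higher, Ppm1a lost its call (0.37, adjusted p = 0.253), and Smad1 and Ep300 lost theirs in Trem2-/-5XFAD against 5XFAD (0.40, adjusted p = 0.0907, and 0.20, adjusted p = 0.353), where 1 gene of the list was then called. The coactivator Ep300 was 0.34 higher in Trem2-/-5XFAD than in 5XFAD (adjusted p = 0.0468).

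Immediate target genes went both ways. Of 22, 5 rose and 5 fell in 5XFAD against WT, with a median of -0.03, and 3 rose and 2 fell in Trem2-/-5XFAD against 5XFAD. Without the gland-transcript arrays 6 rose and 3 fell in the first and 3 rose and 3 fell in the second. Bhlhe40, a transcriptional repressor that many other signals also induce, was 3.71 to 5.45 in WT, 8.13 to 9.04 in 5XFAD and 4.44 to 4.98 in Trem2-/-5XFAD. Only 1 of 4 WT and 1 of 4 Trem2-/- arrays were above the limit for low signal (4.16 to 4.34 across arrays), so the size of its difference from WT depends on that background. Bhlhe40 rose by 4.28 ± 0.27 (adjusted p = 2.93e-10) and fell by 3.75 ± 0.24 from 5XFAD to Trem2-/-5XFAD (adjusted p = 1.22e-09). Id3, an inhibitor of helix-loop-helix factors and also a BMP target, rose by 2.07 and fell by 1.79, with 2 of 4 WT arrays above the same limit. Itga5, an integrin subunit, rose by 2.05 from WT levels of 6.26 to 8.37 (by 2.96 without the gland-transcript arrays, where it was also called -0.64 from 5XFAD in Trem2-/-5XFAD, adjusted p = 0.0096), while Spsb1, a negative regulator of the type II receptor, fell by 0.61. Tgm2, a transglutaminase that takes part in latent TGF-beta activation, fell by 0.82 in 5XFAD against WT (adjusted p = 0.00427). That call was lost without the gland-transcript arrays (adjusted p = 0.0634). Tgm2 was 0.95 ± 0.17 higher in Trem2-/-5XFAD than in 5XFAD (adjusted p = 0.00095), and 0.13 above WT there (adjusted p = 0.775). Klf11, a transcription factor induced by TGF-beta, was 0.50 higher in Trem2-/-5XFAD than in 5XFAD (0.43 without the gland-transcript arrays, adjusted p = 0.0718).

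Of 23 genes of the BMP and activin branch, fewer than the 15.0% of all genes were called in 5XFAD, where none rose and 2 fell, Smad1 and the BMP co-receptor Rgmb (by 0.64). Higher in Trem2-/-5XFAD than in 5XFAD were 2, Smad1 and the ligand Bmp2. Bmp2 was 0.91 ± 0.18 higher (adjusted p = 0.00296), with 5XFAD arrays at 3.85 to 4.64, of which 3 of 5 were above the limit for low signal. Without the gland-transcript arrays 1 was called there, Bmp2 (adjusted p = 0.0152).

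Among these pathway lists, the microglial genes known to depend on TGF-beta had the most genes called in a single direction. Of 12 tested, none rose and 9 fell in 5XFAD against WT, with a median of -0.59, and 7 rose and none fell in Trem2-/-5XFAD against 5XFAD, with a median of 0.33. Over all genes tested the medians were -0.02 and 0.04. Without the gland-transcript arrays 9 fell and 5 rose in these comparisons. Tmem119, a microglial surface protein, was 11.51 to 11.79 in WT, 10.66 to 10.83 in 5XFAD and 11.23 to 11.49 in Trem2-/-5XFAD. Tmem119 fell by 0.96 ± 0.09 in 5XFAD (adjusted p = 1.83e-07) and was 0.58 ± 0.08 higher in Trem2-/-5XFAD than in 5XFAD (adjusted p = 8.02e-05). The fructose transporter Slc2a5 fell by 1.17, and the purinergic receptors P2ry13 and P2ry12 fell by 0.85 and 0.80. Of the 12, 4 passed the interaction, all with a transgene effect that was less negative in Trem2-/- mice. The list was chosen with results of these arrays known, so its direction is not independent evidence. It shares Cx3cr1, P2ry12, Tmem119, Siglech and Fcrls with the microglial markers above, so those counts and these are not independent. A single direction is not particular to this list. Of 10 border macrophage markers, 8 rose and none fell in Trem2-/-5XFAD against 5XFAD, with a median of 0.93.

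**Figure D4:**
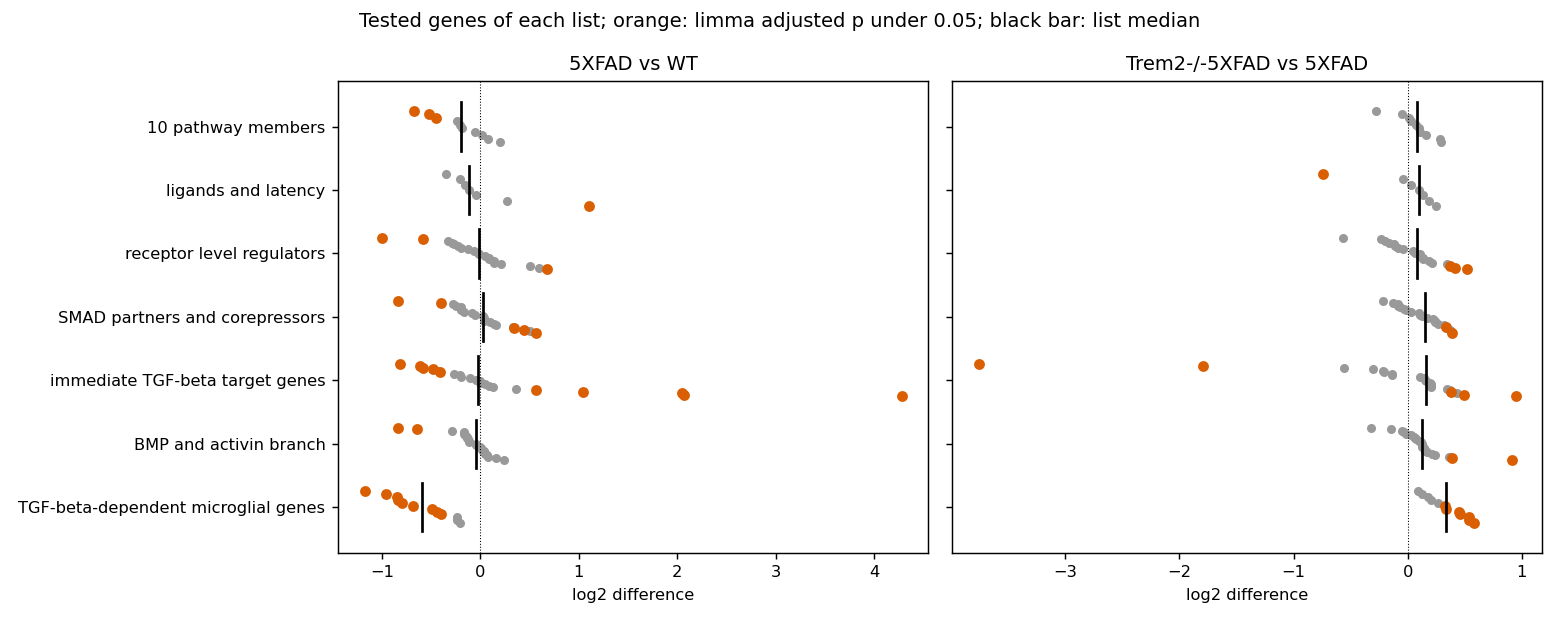
Difference in log2(intensity + 1) for the tested genes of each pathway list in 5XFAD against WT and in Trem2-/-5XFAD against 5XFAD; each point is a gene, orange where it passed the test, and black bars give the list median. The TGF-beta-dependent microglial genes lie mostly below 0 in the first comparison (median -0.59) and above 0 in the second (median 0.33), while the immediate targets lie on both sides.

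Markers of other cells also moved between the groups. Summed intensities of 10 border macrophage markers were 1131 to 1863 in WT, 1261 to 2528 in Trem2-/-, 530 to 913 in 5XFAD and 1132 to 2004 in Trem2-/-5XFAD. Of the 10, 3 fell in 5XFAD against WT, where 6.77% of all genes were called lower. In Trem2-/-5XFAD against 5XFAD 8 rose, where 7.68% of all genes were called in either direction. Eng and Tgfbr1 are described above in the same comparisons. Summed neutrophil markers ran from 129 to 292 in WT, 305 to 2787 in Trem2-/-, 186 to 1318 in 5XFAD and 393 to 4922 in Trem2-/-5XFAD, with Mmp8 and Cxcr2 above the low-signal limit in no array. With the neutrophil level as a covariate, Smad3 and Smad7 lost their calls in Trem2-/-5XFAD against WT (adjusted p = 0.0744 and 0.219), with differences of -0.53 and -0.34 in place of -0.58 and -0.42. Summed astrocyte markers were 534 to 605 in WT, 386 to 504 in Trem2-/-, 618 to 920 in 5XFAD and 424 to 561 in Trem2-/-5XFAD. Of 8 tested, 2 rose and 1 fell in 5XFAD against WT (15.0% of all genes called), with Aqp4 and Aldh1l1 above the limit in no array. Of 5 tested endothelial and mural markers, 1 rose and 1 fell both in 5XFAD against WT and in Trem2-/-5XFAD against 5XFAD. Of 3 tested neuronal markers, 1 rose in the first and 1 fell in the second comparison. Of 7 tested oligodendrocyte markers 1 rose, in the first, and of 3 tested monocyte markers none was called. The shares over all genes were 15.0% and 7.68%. The part of these markers and of the border macrophage and astrocyte markers in the member differences was not tested.

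The groups also differed in the sex of the mice as read from Xist and Y-linked transcripts, with Xist in 3 of 4 WT, 3 of 4 Trem2-/-, 1 of 5 5XFAD and 0 of 6 Trem2-/-5XFAD arrays. Among arrays with Y-linked signal (4 5XFAD and 1 WT) the 5XFAD minus WT difference was -0.39 for Tgfbr1, -0.65 for Smad3 and -0.58 for Smad7. Among arrays with Xist (1 and 3) it was -0.61, -0.91 and -0.53. The direction of the 3 called genes was the same in both, without a test at these numbers. With the sex signal as a covariate the 3 calls in 5XFAD against WT stood, Smad7 lost its call in Trem2-/-5XFAD against WT (a difference of -0.51, adjusted p = 0.0608), and Smad3 gained one in Trem2-/- against WT (-0.53, adjusted p = 0.0433).

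Each member was set beside the tested gene whose level followed it most closely over the 19 arrays, which share groups, sex signal and sorted cell mix, so the values only describe likeness. Tgfbr1 was most like Elmo1 (Pearson r = 0.95) and Gab1 (0.94), and Skil most like Slc38a2 (0.93) and Tnfrsf12a (0.90). Tgfbr2 was most like Itgb2 (0.88), Smad7 like Gp9 (0.88), Smad3 like Myo18b (0.86), Nrros like Spi1 (0.86) and Smad4 like Tmem183a (0.86). Smad2 was most like Aftph (0.81), Ski like Taz (0.80) and Tgfb1 like Il21r (0.78).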

How the data were processed

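Sorted microglia of 4 genotypes were measured on 20 arrays, of which 19 were assigned to groups by their genotype label and title, and 1 was left out because these disagree. The deposited values are normalized linear intensity values, 1 per probe set and array, per the file headers. How they were normalized is stated in no label or header. Array medians were 25.7 to 28.6 and arrays correlated at 0.967 to 0.992, and array number limits the precision. Of 24679 probe sets, 21354 name 1 gene, 1275 name several and 2050 none in the platform annotation, and 21277 matched a current symbol. The highest-mean probe set stood for each of 19751 genes. Values were taken as log2(intensity + 1), and 12728 genes above the array's 40th percentile in at least 4 arrays were tested. One limma model (limma 3.58.1, R 4.3.3) with a mean per group was fitted over the 19 arrays, with 5 group contrasts and the interaction of Trem2 genotype and 5XFAD, Benjamini-Hochberg adjustment over all tested genes and a threshold of 0.05. The script was tested on simulated data. The members, the gene lists and the tests were chosen with earlier results of these data known. Genes named are the members, Trem2, up to 4 called genes of smallest p per pathway list in 5XFAD against WT and in Trem2-/-5XFAD against 5XFAD, and the 2 tested genes most correlated with each member, of which the text gives 1 or both. Klk1b22 and the absent cell markers were named after values were seen. Alternatives were another pseudocount, no filter, a second quantile normalization, median centring, the conflicting array in either group, a replicate block, the mean of all probe sets, sex or neutrophil covariates, leaving out arrays with gland transcripts (for list genes chosen after seeing the data), each array in turn, and fitting each comparison alone.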

Additional observations from a re-analysis of the deposited data

Results flagged for a closer look

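In 5 of the 40 member and group combinations, 1 array stood apart from the rest of its group by Dixon's criterion, which chance meets in about 1 of 20. Tgfb1 was at 9.44 in 5XFAD replicate 3, with the others at 9.95 to 10.004. Trem2-/-5XFAD replicate 2 was low for 2 members, with Nrros at 7.78 (others 8.26 to 8.51) and Tgfbr2 at 8.84 (others 9.40 to 9.51), and without it the Tgfbr2 difference from 5XFAD was -0.17 in place of -0.27. Smad4 was at 6.93 in WT replicate 3, with the others at 7.64 to 7.77. Smad7 was at 8.29 in Trem2-/- replicate 3, with the others at 8.24 to 8.25, a gap that is small beside the spread of the other groups.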

How the results depend on the processing

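The 3 calls in 5XFAD against WT kept their direction and side of the threshold in all 19 fits that left out 1 array and in the other settings, except that Smad3 lost its call without the 4 arrays with gland transcripts (-0.46, adjusted p = 0.0698). Leaving out 1 array gave 1639 to 1969 called genes and 3 to 3 called members in 5XFAD against WT, 675 to 1025 genes and 0 to 1 members in Trem2-/-5XFAD against 5XFAD, 30 to 159 and 0 to 1 in Trem2-/- against WT, 158 to 308 and 0 to 0 in Trem2-/-5XFAD against Trem2-/-, 349 to 686 and 1 to 2 in Trem2-/-5XFAD against WT, and 224 to 362 and 0 to 1 for the interaction. Gene counts moved by over 1.5 times in Trem2-/- against WT without WT replicate 2 (159), WT replicate 3 (42) or any 1 of the Trem2-/- arrays (30 to 46), in Trem2-/-5XFAD against Trem2-/- without Trem2-/- replicate 1 or 3 (164 and 158) or Trem2-/-5XFAD replicate 4 (185), and in Trem2-/-5XFAD against WT without WT replicate 3 (349).

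Members called in Trem2-/-5XFAD against 5XFAD numbered 2 with a pseudocount of 16 (Tgfbr1 0.29, adjusted p = 0.0253, and Skil 0.28, 0.0317), 2 with a second quantile normalization (0.38, 0.0149, and 0.38, 0.00988), and 1 with the conflicting array in WT or in Trem2-/- (Tgfbr1, 0.0475 and 0.0443). The count was 1 in Trem2-/- against WT with the sex covariate and 1 for the interaction with a pseudocount of 16 (Smad3 0.59, 0.0385). Against WT, the count in Trem2-/-5XFAD was 1 with the conflicting array in WT (Smad7 0.0934), with the sex covariate or with the 2 groups fitted alone (Smad7 0.084), and 0 with the neutrophil covariate. Skil was called there with a pseudocount of 16 (0.047) and without the gland-transcript arrays (0.45, 0.0208).

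Counts over all genes moved by over 1.5 times as follows. Without the gland-transcript arrays, 977 became 579 in Trem2-/-5XFAD against 5XFAD and 78 became 271 in Trem2-/- against WT. The latter was 26 with the conflicting array in WT, 27 with the neutrophil covariate and 11 with the groups fitted alone. The replicate block gave 38 there, 183 in place of 278 in Trem2-/-5XFAD against Trem2-/- and 437 in place of 664 in Trem2-/-5XFAD against WT, and it changed no other count by this much and no member's call. The sex covariate gave 160 and 251 in these last comparisons, and the neutrophil covariate 284 in the last. Median centring moved the share of called genes that were higher from 41.9% to 31.4% in Trem2-/-5XFAD against 5XFAD, from 74.5% to 60.5% against Trem2-/-, from 61.4% to 47.5% against WT and from 39.3% to 25.8% for the interaction. A second quantile normalization moved it from 41.9% to 51.2% in Trem2-/-5XFAD against 5XFAD and from 54.8% to 47.2% in 5XFAD against WT, which turns the majority. Over all groups 5 of 25 same-numbered pairs correlated above 0.1 (range -0.10 to 0.17), too few to treat the numbers as pairs. Between WT and 5XFAD it was 3 of 4 (0.095 to 0.17), where replicates 1 and 2 of both groups carry gland transcripts, and 4 of 8 arrays correlated best with their own number. With the block, the 5XFAD differences from WT were -0.54 for Tgfbr1, -0.71 for Smad3 and -0.50 for Smad7, all called. The causes of these changes were not tested.

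Differences that passed in no setting and lay near 0 changed sign as follows. In 5XFAD against WT, Skil was -0.075 (second quantile normalization), -0.028 (conflicting array in WT) and -0.077 (sex covariate), Smad4 -0.0062 (sex covariate) and Nrros 0.052 (without gland-transcript arrays). For Trem2-/-5XFAD against 5XFAD, Tgfb1 was 0.037 (quantile), 0.032 (neutrophil covariate) and 0.014 (without gland arrays), Nrros -0.027 (centring) and -0.013 (sex), Smad7 -0.0099 (centring) and -0.002 (replicate block), Smad2 -0.0034 (neutrophil), Smad3 -0.059 and Smad4 -0.0074 (both without gland arrays). For Trem2-/- against WT, Smad2 was -0.050 (neutrophil) and -0.073 and Tgfbr1 -0.070 (both without gland arrays). For Trem2-/-5XFAD against Trem2-/-, Skil was -0.027 (centring) and -0.095 (sex) and Smad4 0.0055 (block). For Trem2-/-5XFAD against WT, Nrros was 0.095 (without gland arrays). For the interaction, Tgfbr2 was -0.028 (centring), -0.025 (conflicting array in WT) and -9e-04 (sex), Smad2 -0.026 (centring), and Skil -0.035 (centring), -0.018 (sex) and -0.21 (without gland arrays). Leaving out 1 array took further such differences across 0. The ranges in 5XFAD against WT were Nrros -0.12 to 3e-04, Smad4 -0.11 to 0.17 and Skil -0.049 to 0.075. The ranges in Trem2-/-5XFAD against 5XFAD were Tgfb1 -0.15 to 0.0033, Nrros -0.032 to 0.12 and Smad7 -0.016 to 0.073. The ranges in Trem2-/- against WT were Tgfbr1 -0.019 to 0.079 and Smad2 -0.027 to 0.13. The ranges in Trem2-/-5XFAD against Trem2-/- were Smad3 -0.11 to 0.055, Smad4 -0.058 to 0.052 and Skil -0.0072 to 0.070. The ranges in Trem2-/-5XFAD against WT were Nrros -0.10 to 0.063, Tgfbr2 -0.11 to 0.028, Smad4 -0.0071 to 0.27 and Ski -0.090 to 0.0079. The ranges for the interaction were Tgfbr2 -0.040 to 0.13, Smad2 -0.056 to 0.097, Smad4 -0.18 to 0.11 and Skil -0.048 to 0.076.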

Other observations

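The array whose title says WT and whose genotype label says Trem2-/- had a Trem2 level of 11.08, beside 11.14 to 11.39 in WT and 6.84 to 7.02 in Trem2-/-. Its member levels were 11.19 for Tgfbr1, 9.20 for Tgfbr2, 8.28 for Smad3, 7.96 for Smad7 and 10.12 for Skil. Tgfb1 was at 9.75, Nrros at 8.59, Smad2 at 7.78, Smad4 at 7.69 and Ski at 8.91 there, and Tgfbr1 minus Tgfbr2 was 1.99. Counted as WT, this array would lie below the highest Trem2-/- array for Smad3 (8.39) and Tgfbr2 (9.24). For Smad7 it would lie below the highest 5XFAD array (8.05). Counted so, it would end the lack of overlap between WT and Trem2-/- for Smad3 and Tgfbr2, and between WT and 5XFAD for Smad7. For Smad3 it would still lie above all 5XFAD (at most 8.13) and Trem2-/-5XFAD arrays (at most 8.24). Counted as Trem2-/-, it would lie below all WT arrays for Smad3 (lowest 8.50) and Tgfbr2 (lowest 9.32). For Smad7 it would then lie below the highest Trem2-/-5XFAD array (8.17), which ends the lack of overlap of that group with Trem2-/-.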
